A study of Mus musculus with 8 samples.

Results

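The genes described here are 10 factors and surface markers of the naive state of mouse embryonic stem (ES) cells: Klf2, Klf4, Klf5, Tbx3, Esrrb, Nr0b1, Prdm14, Dppa3, Pecam1 and Spic. These genes were chosen with earlier results of these data known. They were taken by gene symbol from the annotation of an Illumina expression array, where 16 of 45281 probes, and 10 of 18300 named genes, carried one of these symbols. All samples were of a single mouse ES cell line, R1 (strains 129S1/SV-+p+Tyr-cKitlSl-J/+ and 129X1/SvJ), were FGF4-/-, and had been infected with an shRNA vector. Before treatment they spent a night in N2B27, a serum-free medium, to which Bmp4 (10 ng/ml) was added, and RNA was taken at day 3. Each of the 4 groups had 2 arrays. One group received FGF4 (20 ng/ml) and carried shMp1Lib on 1 array and shMP1G on the other, both directed at Mp1. The remaining groups carried shRnd1 on 1 array and shRnd2 on the other as control shRNAs and received FGF4 (20 ng/ml), LIF (10 u/ml) or no added factor. The labels do not give separate cultures for the arrays of a pair, so p-values here reflect the spread of these samples alone, and that spread could be technical.

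Naive pluripotency is the state of the preimplantation epiblast and of mouse ES cells held in LIF or in inhibitors of MEK and GSK3. LIF acts through STAT3, and loss of GSK3 activity relieves repression by Tcf7l1. Together these inputs maintain a set of transcription factors that sustain one another. FGF4, which ES cells make themselves, activates ERK and moves them towards the formative epiblast, where these factors are lost while the core factor Pou5f1 is kept. Cells without Fgf4 lack that autocrine signal unless FGF4 is added. Mp1, the product of Lamtor3, is a scaffold that holds MEK1 and ERK1 on late endosomes.

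The knockdown of Mp1 could not be checked, because the 1 Lamtor3 probe was not detected on any array. Its intensity was 71.2 with shMp1Lib and 63.0 with shMP1G. With control shRNAs it was 68.8 and 69.4 in FGF4, 63.8 and 64.3 in LIF, and 70.2 and 64.8 with no factor. The label of the LIF arrays also has a value against it: Socs3, a direct target of LIF signalling through STAT3, read 7.67 and 7.64 log2 units on the arrays labelled LIF and 11.04 and 11.01 on those labelled no growth factor. Results for FGF4 are therefore given against each of these groups. Between 15375 and 17813 probes were detected per array, and the number of arrays limits the precision. The arrays of the Mp1 shRNAs differed most from each other: shMp1Lib and shMP1G were over 1.5-fold apart in 28.5% of features, and the pairs of the other groups in 3.96% to 12.2%. Of 8 ES cell markers, 4 had a named probe (Pou5f1, Utf1, Dppa5a and Tdgf1), and all 4 were detected on all arrays.

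The naive genes were lower with FGF4. In control shRNA cells, all 7 members that could be tested (Klf2, Klf4, Tbx3, Prdm14, Dppa3, Pecam1 and Spic) fell with FGF4 against no growth factor. The 5 still detected on at least 1 of the FGF4 arrays had differences from -1.59 (Klf2) to -2.52 (Klf4) log2 units, and Prdm14 fell at least 1.93-fold and Spic at least 16.2-fold. Over all 14103 features, 15.6% were called in this comparison, 7.79% lower and 7.84% higher. The members were chosen with earlier results of these data known, so their count is not independent support. The members' median difference was -1.69 log2 units, also with Prdm14 and Spic at their bounds, beside -0.016 over all features. The call was limma's moderated test at an adjusted p under 0.05, and a feature is a named gene's brightest probe or an unnamed probe. A probe had to be detected on at least 2 arrays to be tested, and Prdm14 and Spic passed that filter through the LIF and no-factor arrays alone, so a difference in them was in part built in. With no filter all 10 members were tested and the same count of 7 fell. In bulk RNA, fewer cells of a type and less RNA per cell cannot be told apart.

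**Figure D1:**
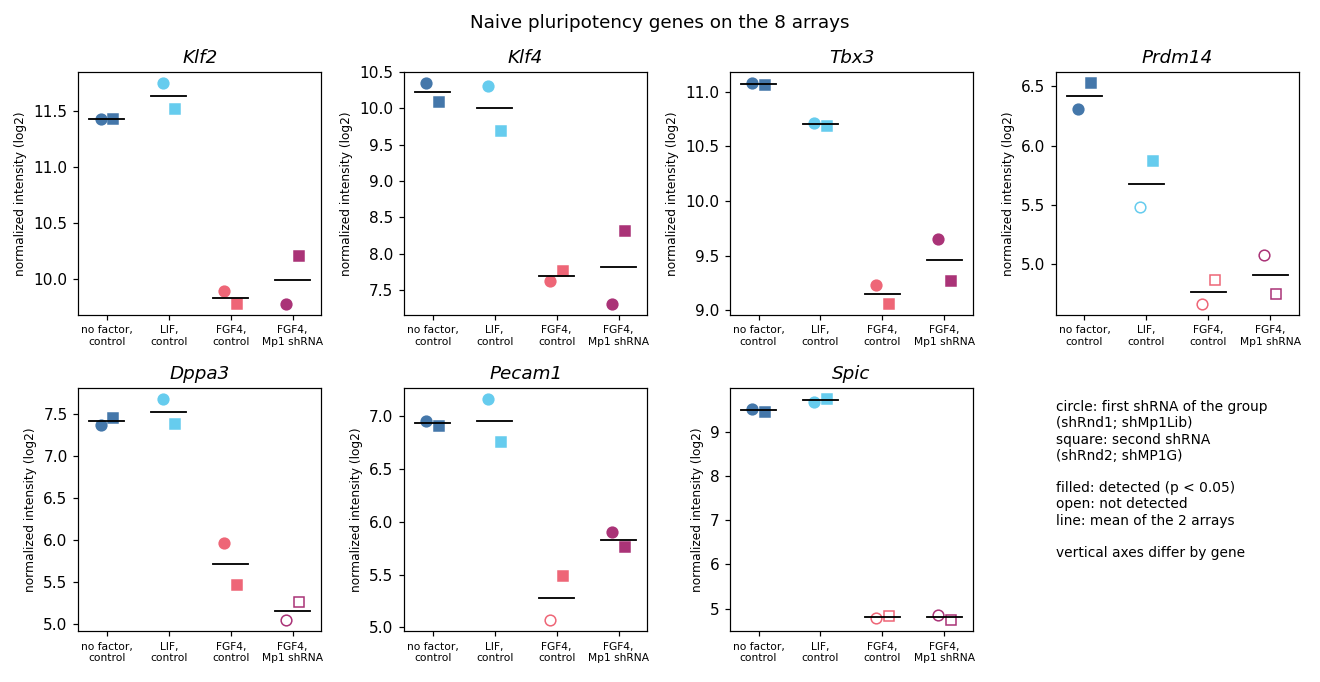
Normalized log2 intensity (vertical axis, scaled per gene) of the 7 tested genes on each of the 8 arrays, by group; lines are means of 2 arrays and open symbols mark arrays on which the probe was not detected. Every gene is higher on the 4 arrays without FGF4 than on the 4 arrays with it, whichever shRNA was used. Spic lies at 9.46 to 9.74 without FGF4 and at 4.74 to 4.86 with it. Prdm14 is close to background: it was not detected on the LIF shRnd1 array (5.48), near its 5.07 with shMp1Lib.

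Klf2 and Klf4 are zinc-finger transcription factors that bind many enhancers of pluripotency genes. Klf4 is a target of LIF and STAT3, and the Klf2 protein is known to be degraded after ERK activation. The Klf2 probe had intensities of 2763 and 2919 with no factor, 2521 and 2979 in LIF, 1118 and 925 in FGF4, and 1209 and 1295 in FGF4 with shMp1Lib and shMP1G. The values with and without FGF4 did not overlap. On the normalized scale Klf2 fell from 11.43 ± 0.00 (SD, n = 2) to 9.84 ± 0.08 (n = 2) with FGF4, a difference of -1.59 ± 0.20 (SE; limma, adjusted p = 0.00126). Klf4 was lower on the same arrays. The Klf4 probe used in the fit read 1304 and 1190 with no factor, 908 and 831 in LIF, 280 and 275 in FGF4, and 285 and 394 with shMp1Lib and shMP1G. It fell from 10.22 ± 0.19 to 7.70 ± 0.09 log2 units with FGF4 (-2.52 ± 0.34, SE; limma, adjusted p = 0.00165). A second Klf4 probe read 753 and 797 with no factor, 422 and 465 in LIF, 155 and 141 in FGF4, and 204 and 187 with the Mp1 shRNAs. It fell by 3.14 log2 units with FGF4 against no factor, with a limma adjusted p of 5.25e-05 in a fit of all 18110 detected probes. Klf5, the zinc-finger factor that ES cells share with the trophectoderm, had 1 probe, which was detected on no array. Its intensity lay between 63.2 and 76.6 in all groups, and no level can be given for it.

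Tbx3, a T-box factor that supports self-renewal downstream of LIF, had 4 probes, all detected on all 8 arrays. The brightest read 2202 and 2304 with no factor, 1199 and 1651 in LIF, 728 and 583 in FGF4, and 1118 and 705 with shMp1Lib and shMP1G. It was highest with no factor and lowest in FGF4 with control shRNAs. Its normalized level fell from 11.07 ± 0.02 to 9.14 ± 0.12 log2 units with FGF4 (-1.93 ± 0.19, SE; limma, adjusted p = 0.000377). The other 3 probes stood at -1.51, -1.71 and -1.74 log2 units in that comparison (adjusted p = 0.0176, 0.0102 and 0.000355 in the fit of all probes). Against LIF the brightest probe stood at -1.56 and 2 of the others at -1.26 and -1.45, all of which passed (adjusted p = 0.00117, 0.0377 and 0.000944). The fourth, whose intensities of 100 and 169 in LIF overlapped 147 and 104 in FGF4, stood at -0.61 (limma, adjusted p = 0.291).

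**Figure D2:**
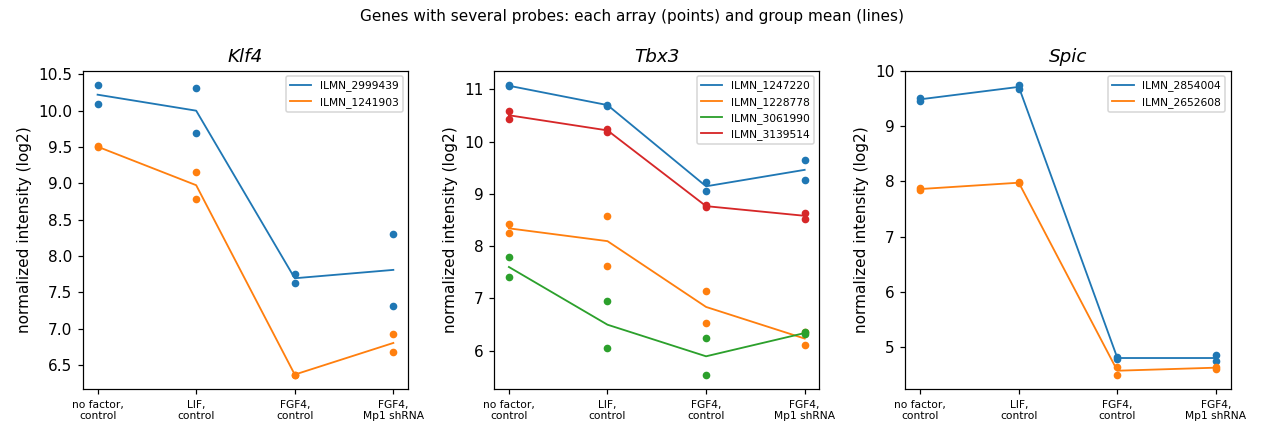
Normalized log2 intensity of each probe of Klf4, Tbx3 and Spic; points are arrays and lines join the group means. All probes of a gene are lower with FGF4 than with no factor, while the 4 Tbx3 probes go both ways between control and Mp1 shRNAs in FGF4.

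The nuclear receptors of the set could not be followed. Esrrb, an orphan receptor and target of the GSK3 and Tcf7l1 axis, had 1 named probe, annotated to a GenBank cDNA rather than a RefSeq transcript. It read 98.1 and 87.1 with no factor, 85.9 and 80.8 in LIF, 98.1 and 86.0 in FGF4 and 88.2 and 78.3 with Mp1 shRNAs, and its lowest detection p-value of 0.05 did not pass. Nr0b1, an X-linked orphan receptor that binds other nuclear receptors and Pou5f1, had 1 probe with intensities of 51.8 to 75.9 over all arrays, detected on none. These values say nothing of whether the transcripts were made.

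Prdm14 and Dppa3 link the naive state to low DNA methylation. Prdm14, a PR-domain zinc-finger protein, represses FGF receptor signalling and the de novo DNA methyltransferase genes in ES cells. Its probe was dim: 133 and 154 with no factor, 88.0 and 111 in LIF, 77.9 and 80.8 in FGF4, and 97.2 and 75.9 with the Mp1 shRNAs. It was detected on both no-factor arrays, on 1 of 2 LIF arrays and on no FGF4 array. Prdm14 fell at least 1.93-fold with FGF4 against no factor (limma, adjusted p = 0.00146) and at least 1.16-fold against LIF (adjusted p = 0.0242). A bound of this kind sets the brighter group against the lowest signal that counted as detected on the dim arrays, on the background-corrected scale. Dppa3, which shields 5-methylcytosine of the maternal genome in the zygote and is expressed in only part of a naive culture, read 214 and 238 with no factor, 183 and 209 in LIF, 134 and 102 in FGF4, and 96.2 and 97.3 with the Mp1 shRNAs. The groups with and without FGF4 did not overlap, and the Mp1 shRNA arrays were the lowest. Dppa3 fell from 7.42 ± 0.06 to 5.72 ± 0.35 log2 units with FGF4 (-1.69 ± 0.22, SE; limma, adjusted p = 0.00146).

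Pecam1, a homophilic adhesion molecule, is a surface marker of naive ES cells and the inner cell mass as well as of endothelium. Its RefSeq probe read 174 and 183 with no factor, 145 and 156 in LIF, 98.2 and 103 in FGF4, and 140 and 116 with shMp1Lib and shMP1G. The FGF4 arrays with control shRNAs were the lowest, and the probe was detected on 1 of those 2. Pecam1 fell from 6.93 ± 0.03 to 5.28 ± 0.30 log2 units (-1.66 ± 0.22, SE; limma, adjusted p = 0.00153). A second probe, annotated to a GenBank cDNA, was detected on no array (64.3 to 77.3). Of 6 markers of endothelium, Cdh5, Kdr, Tie1 and Emcn were detected on no array. Of the other 2, Tek fell by 1.13 with FGF4 and Esam rose at least 1.26-fold (limma, adjusted p = 0.00365 and 0.0108). Esam was detected only on arrays with FGF4 and passed the filter through them, so its rise was in part built in. The summed intensity of the 6 was 618 to 644 with no factor, 527 to 568 in LIF, 572 to 603 in FGF4 and 576 to 644 with Mp1 shRNAs. Such sums add intensities before normalization, of probes detected or not, so background is part of them.

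Spic encodes an Ets-family transcription factor known for red pulp macrophages of the mouse spleen and for high expression in naive ES cells. It gave the largest difference of the members. Its brighter probe read 752 and 774 with no factor, 594 and 863 in LIF, 84.9 and 78.8 in FGF4, and 87.4 and 75.9 with shMp1Lib and shMP1G. It was detected on all 4 arrays without FGF4 and on none of the 4 with it. Spic fell at least 16.2-fold with FGF4 against no factor (limma, adjusted p = 6.12e-06) and at least 18.97-fold against LIF (adjusted p = 8.28e-06). The second Spic probe read 280 and 291 with no factor, 211 and 288 in LIF, and 65.8 to 73.3 on the arrays with FGF4. It fell at least 5.25-fold (adjusted p = 2.64e-05 in the fit of all probes). None of the 5 markers of macrophages and blood cells with a named probe (Ptprc, Cd14, Lyz2, Csf1r and Spi1) was detected on any array, and their summed intensity was 388 to 398 with no factor, 338 to 355 in LIF, 371 to 409 in FGF4 and 402 to 414 with Mp1 shRNAs.

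The size of the falls of dim probes depended on the background correction. Without it, the differences were -0.94 for Dppa3 and -0.81 for Pecam1 log2 units, and both still passed (limma, adjusted p = 0.00321 and 0.00579). Prdm14 and Spic, not detected with FGF4, had fitted differences of -0.79 and -3.05 without it and passed too (limma, adjusted p = 0.00633 and 1.42e-05). Both are smaller than their bounds of 1.93-fold and 16.2-fold. Folds given as bounds therefore hold on the background-corrected scale alone.

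Upstream sequence is given for Klf2, Klf4 and Spic, the members that fell and have an entry in the RefSeq promoter table of mouse build GRCm38.p6, so that the regions just before their start sites can be compared. The table held 5 of the 10 members. Each sequence is the 250 bases before the annotated start, written along the gene. Capitals mark matches on either strand to CACCC, the core bound by Klf factors, to TTCNNNGAA of STAT factors, to AAGGTCA of Esrrb and to CTTTGA of Tcf factors.
Klf2 (chr8:72318812-72319061, plus strand): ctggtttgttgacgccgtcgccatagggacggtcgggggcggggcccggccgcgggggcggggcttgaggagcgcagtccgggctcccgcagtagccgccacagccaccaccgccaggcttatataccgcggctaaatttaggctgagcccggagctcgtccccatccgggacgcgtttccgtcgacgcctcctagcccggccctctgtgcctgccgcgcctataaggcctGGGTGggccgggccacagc
Klf4 (chr4:55532476-55532725, minus strand): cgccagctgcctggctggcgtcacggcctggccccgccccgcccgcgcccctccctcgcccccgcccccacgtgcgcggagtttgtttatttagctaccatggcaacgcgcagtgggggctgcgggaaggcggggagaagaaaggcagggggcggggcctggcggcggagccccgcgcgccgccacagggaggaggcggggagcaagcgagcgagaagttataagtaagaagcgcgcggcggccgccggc
Spic (chr10:88683024-88683273, minus strand): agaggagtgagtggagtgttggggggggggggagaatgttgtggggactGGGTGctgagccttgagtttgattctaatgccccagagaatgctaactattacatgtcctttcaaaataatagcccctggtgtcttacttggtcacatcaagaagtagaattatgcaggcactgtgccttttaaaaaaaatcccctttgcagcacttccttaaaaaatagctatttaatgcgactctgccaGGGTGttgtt
Klf2 held 1 match and Spic 2 matches, all to CACCC or its reverse complement, which 52% of all 32851 promoters of the same length also held. Klf4 held none of the 4 motifs. TTCNNNGAA was found in 7.02%, AAGGTCA in 4.08% and CTTTGA in 13.8% of all promoters. GC content was 71.2% for Klf2, 74% for Klf4 and 44.8% for Spic. A match is a description of letters and not a bound site.

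LIF could not be told apart from no factor for any single member. Of the 7 tested, 0 passed in either direction with limma and 1 (Prdm14) had an unadjusted p under 0.05; over all features 0.00709% were called, which is 1 feature, Socs3. The members' median difference was 0.02 log2 units beside 0.004 over all features. Prdm14 stood at -0.74 (95% interval -1.24 to -0.24; adjusted p = 0.514) and Tbx3 at -0.37 (-0.81 to 0.06; adjusted p = 0.732). Klf4, a LIF target, stood at -0.22 with an interval of -1.003 to 0.56, which leaves room for a change in either direction. Its second probe stood at -0.53 (-0.98 to -0.08; unadjusted p = 0.0254, adjusted p = 0.634 in the fit of all probes). Of the further Tbx3 probes the dimmest stood at -1.10 (-1.87 to -0.34; unadjusted p = 0.0103, adjusted p = 0.571), and its arrays did not overlap. The differences of Klf2, Dppa3, Pecam1 and Spic lay between 0.02 and 0.23, and those of Dppa3, Pecam1 and Spic turned to -0.15, -0.22 and -0.01 when arrays were scaled by their medians, a setting that moved the median of all features by -0.191.

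FGF4 against LIF used the same FGF4 arrays as the comparison with no factor, so the results are not independent. Prdm14 and Spic again passed the filter only through the arrays without FGF4, so their falls were in part built in. All 7 tested members fell, where 15.7% of all features were called, 7.71% lower and 7.97% higher; with arrays scaled by their medians 3.67% were lower and 6 members fell. The differences were -1.80 for Klf2, -2.30 for Klf4, -1.56 for Tbx3, -1.81 for Dppa3 and -1.68 for Pecam1 (limma, adjusted p from 0.000794 to 0.00278). The fall of Prdm14 was the exception to these margins. It did not pass without background correction (adjusted p = 0.0592), with array medians (0.0783), without either FGF4 control array (0.165 without shRnd1 and 0.0893 without shRnd2), without the LIF shRnd2 array (0.123) or without either no-factor array (0.051).

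**Figure D3:**
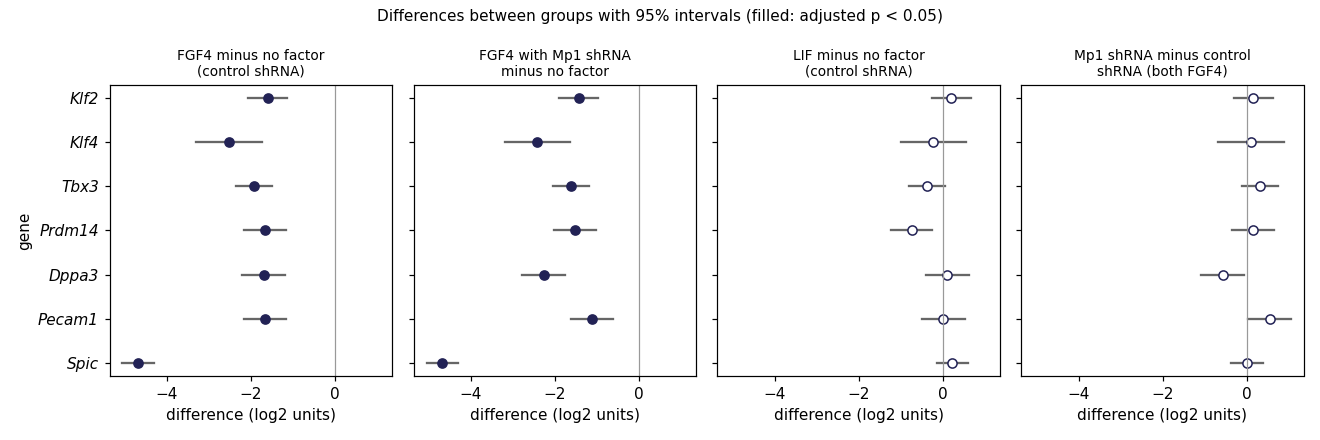
Differences in log2 units (horizontal axis) with 95% intervals for the 7 tested genes in 4 comparisons; filled points passed an adjusted p under 0.05. The 7 differences lie below 0 for FGF4 against no factor with either kind of shRNA, and within 0.74 of 0 in the other panels. Spic and Prdm14 with FGF4, and Dppa3 with Mp1 shRNAs, are fitted differences from levels not detected.

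The arrays with FGF4 were then compared between Mp1 and control shRNAs. Since the knockdown could not be checked, the comparison is of shRNAs and cannot tell whether these genes respond to FGF4 through Mp1. None of the 7 tested members passed with limma, in either direction, and 2 had an unadjusted p under 0.05 (Dppa3 and Pecam1). Over all features 0.0993% were called, 0.0638% higher and 0.0355% lower, so few calls would be found among any 7 genes. The 14 features called became 2841 without shMP1G and 28 without shMp1Lib, fits in which the lone array is assumed to vary like the other groups, and 0 members passed in either. The members' median difference was 0.15 log2 units, beside 0.048 over all features. Pecam1 stood at 0.55 (95% interval 0.05 to 1.05; adjusted p = 0.325), Tbx3 at 0.32 (-0.12 to 0.76; 0.431), Klf2 at 0.16 (-0.30 to 0.62; 0.689) and Klf4 at 0.11 (-0.67 to 0.89; 0.883). Dppa3, not well above background with Mp1 shRNAs, had a fitted difference of -0.57 (95% interval -1.08 to -0.06, limma adjusted p = 0.32). Spic was not well above background in either group, and Prdm14 likewise.

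The probes and the shRNAs did not all point the same way. The 3 further Tbx3 probes stood at -0.60, 0.45 and -0.19 log2 units with Mp1 shRNAs, none with an adjusted p under 0.4446, and the second Klf4 probe at 0.44 (adjusted p = 0.388). Klf4 read 7.31 with shMp1Lib and 8.31 with shMP1G, on either side of the control shRNA arrays at 7.63 and 7.76, and its second probe read 6.68 and 6.93 against 6.37 and 6.37. Klf2 read 9.78 and 10.21 against 9.89 and 9.78. With shMp1Lib alone Klf4 stood at -0.39, and with shMP1G alone at 0.61 log2 units.

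With Mp1 shRNAs in FGF4, the members were still below the groups without FGF4. Against no factor all 7 fell, with 14.2% of all features called, 8.12% higher and 6.09% lower (3.67% lower when arrays were scaled by their medians, where all 7 fell too). The differences were -2.41 for Klf4, -1.61 for Tbx3 and -1.43 for Klf2 (limma, adjusted p = 0.00268, 0.00117 and 0.00272). Dppa3 fell at least 4.17-fold, Prdm14 at least 2.09-fold and Spic at least 17.5-fold (limma, adjusted p = 0.000512, 0.00289 and 5.71e-06). The falls of Prdm14 and Spic were again in part built in by the filter, here and against LIF. With either Mp1 array left out all 7 were still called, in fits where the lone Mp1 array is assumed to vary like the other groups. Pecam1 fell by 1.11 and did not pass without either no-factor array (adjusted p = 0.0947 and 0.091). Against LIF all 7 fell as well, with 19.4% of all features called, 8.35% lower and 11.1% higher. That last count was less firm: with arrays scaled by their medians 3.59% of features were lower and 5 members fell, and Prdm14 (adjusted p = 0.042) lost its call on leaving out any array other than shMp1Lib. Pecam1 (adjusted p = 0.011) did not pass without the LIF shRnd1 array (0.0869), with array medians (0.0748), with array weights (0.0517) or with only the 4 arrays compared (0.0688). Of the further Tbx3 probes against LIF, those at -1.86 and -1.63 passed (limma, adjusted p = 0.00772 and 0.000803 in the fit of all probes). The dimmest, at -0.16 with overlapping arrays, did not (adjusted p = 0.75). With array weights 5 members were called against LIF. These comparisons share arrays with each other and with those above.

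Taking the 4 group means in order, the LIF and no-factor means lay above both FGF4 means for each of the 7 genes. Klf2, Dppa3, Pecam1 and Spic were highest in LIF and Klf4, Tbx3 and Prdm14 with no factor, but with array medians no factor was the higher for Dppa3, Pecam1 and Spic (-0.15, -0.22 and -0.0099 for LIF minus no factor), and without the LIF shRnd2 array LIF was the higher for Klf4 (0.0903). None of these steps passed (limma, adjusted p = 0.514 to 0.984). The arrays of Klf2, Tbx3, Prdm14 and Spic did not overlap there, and neither did those of 46.3% of all features. The step from the lower of these groups to the higher FGF4 group passed for each, from at least 1.25-fold for Prdm14 (adjusted p = 0.042) to at least 17.5-fold for Spic (adjusted p = 5.71e-06). Within the FGF4 groups the Mp1 shRNA mean was the higher for Klf2, Klf4, Tbx3 and Pecam1 and the lower for Dppa3, and none of these steps passed (adjusted p = 0.32 to 0.883). The Prdm14 and Spic means there lie below detection and have no order.

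Other pluripotency genes divided. Of 12 further genes of the naive network, 3 were tested and 0 passed with limma when FGF4 was compared with no factor (1 at an unadjusted p under 0.05): Nr5a2, a nuclear receptor, stood at -0.60, the LIF receptor gene Lifr at -0.40 and Dppa5a at 0.12 (adjusted p = 0.0769, 0.413 and 0.736). Of 12 general pluripotency genes, 7 were tested, 4 rose and 0 fell. The chromatin factor gene Utf1 rose by 1.62, Dppa4 by 1.25, Dppa2 by 1.11 and the RNA-binding protein gene Lin28a by 1.04 log2 units (adjusted p = 0.00365, 0.00327, 0.00645 and 0.00662). Pou5f1, which encodes Oct4 and was picked with its values known, read 13.89 ± 0.03 with no factor and 14.02 ± 0.11 with FGF4 (adjusted p = 0.769). Against LIF 3 of the 7 rose (Lin28a by 1.15) and 0 fell. With Mp1 shRNAs 4 rose against no factor (Utf1 by 1.60) and 0 fell, and against LIF 4 rose (Dppa4 by 1.18) and 1, the growth factor gene Gdf3, fell by 0.82. With Mp1 shRNAs in FGF4 against control shRNAs, limma called 0 of these 7, and 0 had an unadjusted p under 0.05.

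Most tested genes of the formative and primed epiblast were higher with FGF4, in a list chosen with earlier results of these data known. Of 12 such genes 5 were tested, and 4 rose with FGF4 against no factor while 0 fell: the carbonic anhydrase gene Car4 (at least 87.8-fold), the POU factor gene Pou3f1 by 4.40, the tight junction gene Cldn6 by 4.21 and the de novo DNA methyltransferase gene Dnmt3b by 2.96 log2 units (limma, adjusted p from 6.12e-06 to 0.000137). Zic2 stood at 0.35 and did not pass (limma, adjusted p = 0.505). With Mp1 shRNAs in FGF4 4 of the 5 rose against no factor (Car4 at least 54.6-fold) and 4 against LIF. Between Mp1 and control shRNAs in FGF4 0 of 5 passed with limma, and 2 had an unadjusted p under 0.05.

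**Figure D4:**
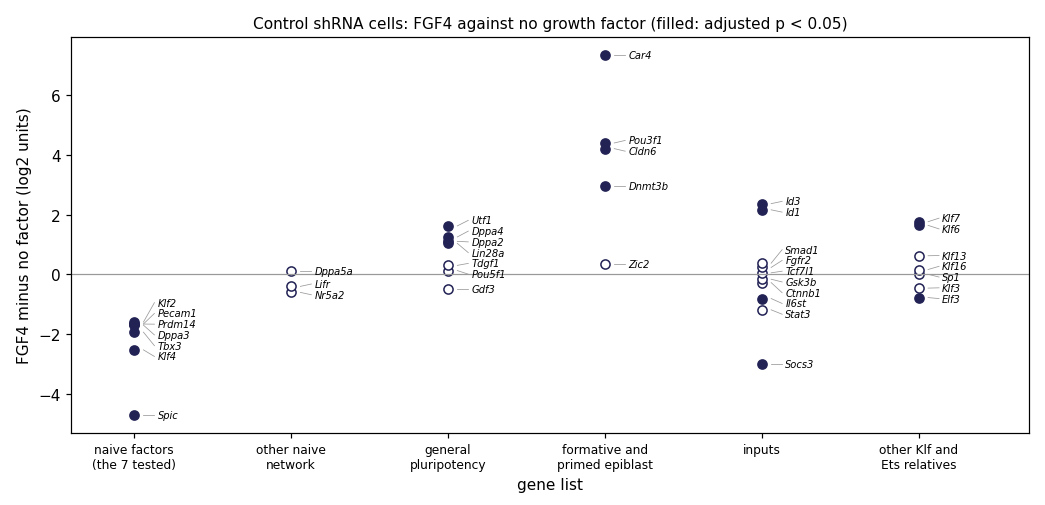
Log2 difference between FGF4 and no factor in control shRNA cells (vertical axis) for the tested genes of 6 lists; filled points passed an adjusted p under 0.05. The 7 naive factors lie at -1.59 or below, while 4 formative genes lie at 2.96 or above (the value of Car4 is a fitted difference from a level not detected with no factor).

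Genes that feed into the naive network moved both ways. Of 12, 10 were tested, and with FGF4 against no factor 2 rose and 2 fell. The BMP targets Id3 and Id1, inhibitors of basic helix-loop-helix factors, rose by 2.37 and 2.16, and Socs3 and the LIF co-receptor gene Il6st fell by 2.99 and 0.80 log2 units (limma, adjusted p = 0.0016, 0.00167, 5.07e-05 and 0.0317). With FGF4 against LIF 2 rose (Id3 by 1.37) and 1, Il6st, fell by 0.98 (limma, adjusted p = 0.0143). Socs3 stood at 0.39 there and did not pass (adjusted p = 0.201). With Mp1 shRNAs against no factor 2 rose and Socs3 fell by 2.90. Against LIF 1 rose (Id1 by 1.01), and Socs3 stood at 0.48 (adjusted p = 0.0917). The falls of Socs3 with FGF4 were thus against the no-factor arrays alone. Among 12 other genes, of the Klf and Ets families and Sp1, 7 were tested, 2 rose and 1 fell. Klf7 rose by 1.77 and Klf6 by 1.64, and Elf3 fell by 0.77 log2 units (limma, adjusted p = 0.0017, 0.000499 and 0.0429). Against LIF 2 rose (Klf7 by 1.68) and 1 fell. With Mp1 shRNAs 1 rose against no factor (Klf6 by 0.82), and against LIF 1 rose and 1 fell (Elf3 by 1.14).

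Markers of other cell types were read on the same arrays. Their sums add intensities before normalization, of probes detected or not, so much of a sum can be background. Of 7 feeder fibroblast markers, 6 including Col1a1, Col1a2 and Col3a1 were detected on no array, and the list's summed intensity was 535 to 604 with no factor and 654 to 753 in FGF4 (532 to 552 in LIF and 687 to 728 with Mp1 shRNAs). Thy1, the seventh, stood at 1.41 with FGF4 (limma, adjusted p = 0.0636). Of 7 primitive endoderm markers, 0 were detected on all arrays and Foxa2 on none, and the sums were 623 to 700 with no factor, 591 to 629 in LIF, 784 to 855 in FGF4 and 814 to 966 with Mp1 shRNAs. Dab2 rose at least 3.22-fold with FGF4 (limma, adjusted p = 0.000847). It was detected only on arrays with FGF4 and passed the filter through them, so its rise was in part built in. The other 4 tested did not pass: Gata6 stood at -0.02, Gata4 at -0.20, Sox7 at -0.17 and Sox17 at 0.73 log2 units. Of 7 trophoblast markers, Eomes, Elf5 and Hand1 were detected on no array, Ascl2 rose at least 3.07-fold (adjusted p = 0.000709), and the sums were 629 to 715 with no factor, 639 to 696 in LIF, 815 to 1035 in FGF4 and 703 to 820 with Mp1 shRNAs. Gata3 stood at 0.59 and Krt7 at 0.69 with FGF4, and neither passed (limma, adjusted p = 0.1165 and 0.071). With Mp1 shRNAs Gata3 fell by 0.88 against no factor and by 1.71 against LIF (adjusted p = 0.0316 and 0.00174). Ascl2 rose in both, at least 2.28-fold and by 0.81 (adjusted p = 0.00292 and 0.0444). The part of such cells in the falls of the members was not tested. Of 6 germ cell markers, Prdm1 and Nanos3 were detected on no array, Kit fell by 3.17 (adjusted p = 6.37e-05), Dazl, Tfap2c and Ddx4 did not pass (-0.40, -1.06 and 0.55 log2 units), and the sums were 4214 to 4886 with no factor, 2457 to 3659 in LIF, 1853 to 2391 in FGF4 and 1725 to 3374 with Mp1 shRNAs. With Mp1 shRNAs against no factor Ddx4 rose at least 1.26-fold (limma, adjusted p = 0.0399). Ddx4 too was detected only on arrays with FGF4, so this rise was in part built in.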

How the data were processed

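RNA of 8 samples was hybridised to Illumina arrays after biotin-labelled amplification, per the labels. The deposited table gives an intensity and a detection p-value for 45281 probes on each array, per the file headers; the scanner software was not given in the sources used here. Of 362248 intensity cells, 294271 (81.2%) had lost their decimal point. The point was put back from the digit count and the detection p-value (0 restored cells lay more than 0.1 from the detection p-value order of intact cells). The deposited series value table of 42293 probes was not used for named results: its 78 ribosomal protein probes had a median intensity percentile of 55.2, against 99.6 in the table used, so its probe names and values do not match.

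Intensities were corrected with limma 3.58.1 in R 4.3.3 (neqc: normexp with negative controls inferred from detection p-values, offset 16, quantile normalization, log2). Probes were kept where at least 2 arrays had a detection p-value under 0.05, and the brightest probe stood for a gene, which left 14103 features (8933 named). Symbols came from the platform annotation, which names 32245 probes. Group means over all 8 arrays were fitted with lmFit and eBayes (two-sided, Benjamini-Hochberg over all features, threshold 0.05); SDs are between the 2 arrays of a group. A group in which a probe was detected on no array is called not well above background, and folds against it are bounds on the background-corrected scale. The procedure was tested on simulated data. For LIF the titles, which name shRnd1 and shRnd2, were followed, although a protocol note names Rnd1 alone. All 10 members are named, and from each further list up to 4 genes with the largest differences past the threshold for FGF4 against no factor and the largest that passed in each other comparison (genes of lists with 0 calls are named too). The members and lists were chosen with earlier results of these data known. No per-sample columns were left out (0).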

Additional observations from a re-analysis of the deposited data

How the results depend on the processing

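Of the 7 tested genes in 6 comparisons, 301 of the values under other processing (no background correction, array medians, no filter, a stricter filter, all probes, array weights, only the 4 arrays compared, replicate block) kept direction and call, 11 lost the call and 3 turned sign, none of them called. The 3 are Dppa3 (-0.15), Pecam1 (-0.22) and Spic (-0.0099) for LIF against no factor with array medians. Leaving out 1 array kept 313, lost 15 calls and turned 8 uncalled values. Without 1 array, Dppa3 ranged from -0.0363 to 0.26, Pecam1 from -0.18 to 0.23 and Klf4 from -0.53 to 0.0903 for LIF against no factor. For Mp1 against control shRNA, Klf2 ranged from -0.057 to 0.38, Klf4 from -0.39 to 0.61, Prdm14 from -0.0199 to 0.31 and Spic from -0.0563 to 0.0646. The lost calls were of Prdm14, Pecam1 and Tbx3 against LIF or with Mp1 shRNAs. The number of members called stayed at 7 for FGF4 against no factor in each fit run, and at 0 for LIF against no factor and for Mp1 against control shRNA; it was 6 to 7 for FGF4 against LIF and for Mp1 shRNA against no factor, and 5 to 7 for Mp1 shRNA against LIF when an array was left out. With only the 4 arrays compared, 4 members (Klf2, Klf4, Dppa3 and Spic) were called for Mp1 shRNA against LIF; Tbx3 missed at an adjusted p of 0.0506.

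The shRNA numbers did not pair the arrays: deviations of same-numbered control arrays correlated at -0.0832, -0.0696 and 0.043, and with the replicate block 7, 0 and 7 members were called in the 3 control comparisons, with 2975 against 2205 features called for FGF4 against no factor.

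Counts over all features moved more. Without 1 array they ran from 1008 to 3232 (2205 with all arrays) for FGF4 against no factor, 981 to 3325 (2212) for FGF4 against LIF, 1 to 19 (1) for LIF against no factor, 0 to 2841 (14) for Mp1 against control shRNA, 737 to 4565 (2004) for Mp1 shRNA against no factor and 893 to 6082 (2742) against LIF. In the same order of comparisons, array weights gave 4112, 3013, 33, 2, 1323 and 1220, and only the 4 arrays compared gave 3858, 2685, 1, 0, 989 and 702. Array medians gave 4 for Mp1 against control shRNA and 2 for LIF against no factor, and no filter gave 3 for the latter. Array medians also moved the split of higher and lower calls: 1211 and 517 (1124 and 1088 before) for FGF4 against LIF, 3 and 1 (9 and 5) for Mp1 against control shRNA, 1168 and 518 (1145 and 859) for Mp1 shRNA against no factor and 2916 and 507 (1564 and 1178) against LIF. They moved the median of all features by up to 0.36 log2 units. The cause was not tested. Signal close to background limits Klf5, Esrrb, Nr0b1 and Prdm14, and on arrays with FGF4 also Dppa3, Pecam1 and Spic.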
